A study of Mus musculus with 5 samples.

Results

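Mouse chromosome 6 held 69069 of the 622792 WT1 peaks in the 4 peak lists of the series. By list, it held 444 peaks in M15 replicate 1, 5230 of 60925 in M15 replicate 2, 35876 of 310999 in KTS-minus replicate 1 and 27519 of 244428 in KTS-minus replicate 2. Because the lists differed so much in length, each was also cut to its strongest peaks by max signal, as many as M15 replicate 1 lists in all, with total signal deciding between equal values. These equal-length lists held 2463 chromosome 6 peaks, of which 444 and 479 came from M15 replicates 1 and 2 and 886 and 654 from KTS-minus replicates 1 and 2. Chromosome 6 was singled out because its share was already known to be higher in the KTS-minus lists, so that difference is given as a description, without a test.

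All libraries came from M15, a mouse mesonephric epithelial line transformed by polyoma virus large T antigen, and WT1 was mapped with the same antibody in each. The first group was M15 itself (n = 2). The second was an M15 derivative, genome edited at the KTS isoforms of WT1 and labelled KTS-minus (n = 2). The labels leave unsaid which isoform is kept in the edited cells, whether they are 1 clone, or whether replicates were separate cultures, so the spread between replicates may be technical. An IgG library from M15 was not analysed here. With 2 libraries against 2, an exact two-sided permutation test cannot go below p = 0.333, and none is reported.

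WT1 is a zinc-finger protein needed for the development of the kidney, gonad and mesothelium. Splicing at the end of an exon decides whether lysine, threonine and serine (KTS) are inserted in the linker between zinc fingers. The form without the insertion binds GC-rich DNA and acts on transcription, whereas the form with it binds such DNA less tightly and is found with splicing factors and RNA. In CUT&RUN, a nuclease tethered to the antibody releases DNA around the bound protein, and the peak caller SEACR turns continuous stretches of the resulting coverage into peaks. A peak's total signal is the summed coverage of its stretch and its max signal is the highest coverage in it; both are the authors' values and were used only inside a list.

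Chromosome 6 took a larger share of both KTS-minus lists than of both M15 lists, at either list length. Of the equal-length list, it took 6.89% (95% Wilson interval 6.30 to 7.54) in M15 replicate 1 and 7.44% (6.82 to 8.10) in M15 replicate 2. It took 13.8% (12.9 to 14.6) in KTS-minus replicate 1 and 10.2% (9.44 to 10.9) in KTS-minus replicate 2. The groups did not overlap, and the KTS-minus replicates lay farther apart from each other than the M15 replicates. Of the whole list, the shares were 6.89% and 8.58% in M15 against 11.5% and 11.3% in KTS-minus, which gives 7.74% ± 1.19 against 11.4% ± 0.196 (SD, n = 2 each) and a ratio of 1.47. By share, chromosome 6 was in place 3 of the 19 autosomes in both M15 lists and in place 1 in both KTS-minus lists. The line ratio of the equal-length lists was 1.67, and those of the other autosomes ran from 0.654 on chromosome 7 to 1.31 on chromosome 10. Chromosome X had a larger ratio, 2.2, and a larger share of KTS-minus replicate 2, 12.7%, but its M15 replicates differed more, at 3.17% and 7.95%. In the whole lists, the chromosome 6 ratio was in place 3, below a highest value of 1.58 on chromosome 16. By total signal, chromosome 6 took 6.97% and 6.45% of the M15 equal-length lists against 9.47% and 7.72% of the KTS-minus lists. That ratio was 1.28, and the ratio by covered bases was 1.44, both smaller than by peak number. In the whole lists these ratios were 1.67 and 1.66. The intervals hold counting error alone, and peaks that lie close together are not independent. Read depth is unknown, and chromosome copy number was not measured, so more DNA and more WT1 per DNA copy cannot be told apart.

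How peaks were ordered affected the difference between the lines. With lists of the same length taken by total signal, which favours wide peaks, the chromosome 6 shares were 6.89% and 5.93% in M15 against 17.3% and 7.44% in KTS-minus. The groups still did not overlap, but KTS-minus replicate 2 then lay close to M15 replicate 1. With the 3000 highest by max signal, the shares were 7.0% and 7.97% against 12.6% and 9.90%. Inside the equal-length list, the chromosome 6 share of KTS-minus replicate 1 was 11.5% over ranks 1 to 1610 and 16.0% from rank 4831 to the end. KTS-minus replicate 2 had 10.3% and 9.81% in the same ranks, so only 1 of the KTS-minus libraries had more of its weaker peaks on the chromosome. The corresponding M15 values were 7.45% and 6.46% in replicate 1 and 7.89% and 6.34% in replicate 2. At the edge of the list, the last chromosome 6 peak inside had a max signal of 12 in M15 replicate 2, 25 in KTS-minus replicate 1 and 40 in KTS-minus replicate 2, and the first one outside had the same max signal in each list.

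In 5 Mb bins, the higher KTS-minus share ran along most of the chromosome, with interruptions. A bin was called higher where both KTS-minus libraries had a larger share of their own list than both M15 libraries, and lower where both had a smaller one. In the equal-length lists, 23 of 30 bins (76.7%) were higher, 1 was lower and in 6 the groups overlapped. On the other autosomes, 22.3% of 5 Mb bins were higher and 29.4% lower. Since the chromosome was chosen on this contrast, nothing further is read from the count. With the list taken by total signal, only 13 of the 30 bins were higher.

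**Figure D1:**
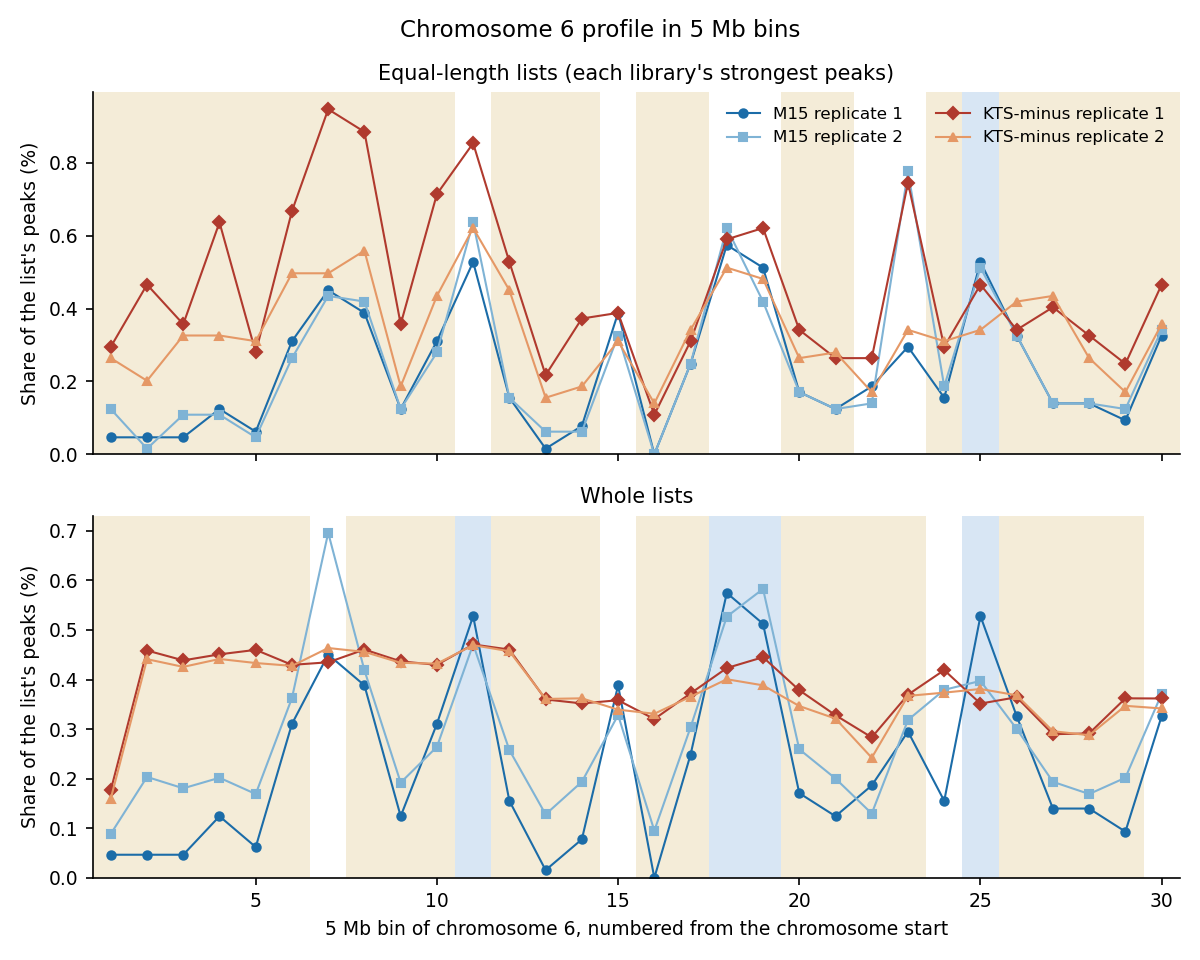
Share of each library's peaks (%) in 30 bins of 5 Mb along chromosome 6, for equal-length lists (top) and whole lists (bottom); each line is 1 library, cream bands mark bins where both KTS-minus libraries lie above both M15 libraries, and blue bands mark the reverse. In the equal-length lists 23 bins are cream and 1 is blue. In the whole lists 22 are cream and 4 are blue. After the bin at the start, the KTS-minus lines of the whole lists vary less than the M15 lines but are not flat. KTS-minus replicates 1 and 2 have 0.471% and 0.469% at 50000001 to 55000000, and 0.283% and 0.242% at 105000001 to 110000000.

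The longest uninterrupted run of higher bins was the first 10, from position 1 to 50000000. This run held 1.91% and 1.93% of the M15 equal-length lists against 5.61% and 3.6% of the KTS-minus lists, a ratio of 2.40. A further 3 runs of at least 2 bins lay in the interior, at 55000001 to 70000000 (ratio 3.62), 75000001 to 85000000 (1.81) and 95000001 to 105000000 (1.95). The last run, 125000001 to 150000000, reached the end of the chromosome with a ratio of 1.64, and 115000001 to 120000000 was a single higher bin (1.77). The runs were separated by bins in which the lines overlapped, and by the lower bin at 120000001 to 125000000. That bin held 34 and 33 M15 peaks against 30 and 22 KTS-minus peaks, a ratio of 0.776.

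The size of the ratio varied far more along the chromosome than its direction. It was above 1 in 27 of the 30 bins and at least 2 in 14. The highest value was 10.8 at 5000001 to 10000000, where M15 replicates 1 and 2 had 3 and 1 peaks and KTS-minus replicates 1 and 2 had 30 and 13. At 20000001 to 25000000 the counts were 4 and 3 against 18 and 20, a ratio of 5.43. The bin at 75000001 to 80000000 had no M15 peak in either equal-length list and 7 and 9 KTS-minus peaks, which is at least 5.33-fold higher when M15 is set at a floor of 3 counts over both lists. At the other extreme, 85000001 to 90000000 had 37 and 40 M15 peaks against 38 and 33 (0.922), and 70000001 to 75000000 had 25 and 21 against 25 and 20 (0.978). The bins at the ends gave 3 and 8 against 19 and 17 peaks (3.27) at the start, and 21 and 22 against 30 and 23 (1.23) at 145000001 to 150000000. No list had a peak in the first 3 Mb, the first chromosome 6 peak starting between 3000149 and 3150750, so the bin at the start is not full. The bins with the lowest ratios were among those with many M15 peaks, and those with the highest were nearly empty in M15.

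The whole lists gave a similar count but another arrangement. There, 22 bins (73.3%) were higher and 4 lower, beside 49.2% higher and 17.5% lower on the other autosomes. Chromosome 16 had a larger part of its bins higher (75%), so chromosome 6 did not stand first by this count. The 4 lower bins were 50000001 to 55000000, the adjacent pair 85000001 to 95000000, and 120000001 to 125000000. In the pair, M15 replicate 1 had 37 and 33 peaks and M15 replicate 2 had 321 and 355, among the fullest M15 bins of the chromosome. KTS-minus replicate 1 had 1316 and 1384 peaks there and KTS-minus replicate 2 had 979 and 949. Over these 4 bins the shares lay between 0.397% and 0.583% in M15 and between 0.351% and 0.471% in KTS-minus.

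At 1 Mb, the equal-length lists were sparse and the runs broke up. Of 147 bins with a peak, 83 (56.5%) were higher, 6 lower and 58 overlapped, beside 13.2% higher and 18.4% lower on the other autosomes. The higher bins formed 28 runs, 20 of them of at least 2 bins. The longest spanned 12 bins, 12000001 to 24000000, at a ratio of 4.96, and another 8 bins, 3000001 to 11000000, at 5.44. Near the far end, 130000001 to 138000000 formed a run of 8 bins at 2.61. All 6 lower bins were single. At this grain, 48 bins held no M15 peak of the equal-length lists, so a call there rested on KTS-minus peaks alone. In the whole lists, 98 bins (66.7%) were higher and 23 lower, beside 53.5% and 16.1% on the other autosomes, and the longest higher run covered 25 bins, 3000001 to 28000000, at a ratio of 3.51. The lowest 1 Mb ratio of the whole lists was 0.417 at 91000001 to 92000000, with 17 and 103 M15 peaks against 279 and 222. The highest was 21.9 at 104000001 to 105000000, with 0 and 3 M15 peaks against 182 and 121. The KTS-minus peak numbers of these 2 bins lay much closer to each other than those of M15 replicate 2.

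**Figure D2:**
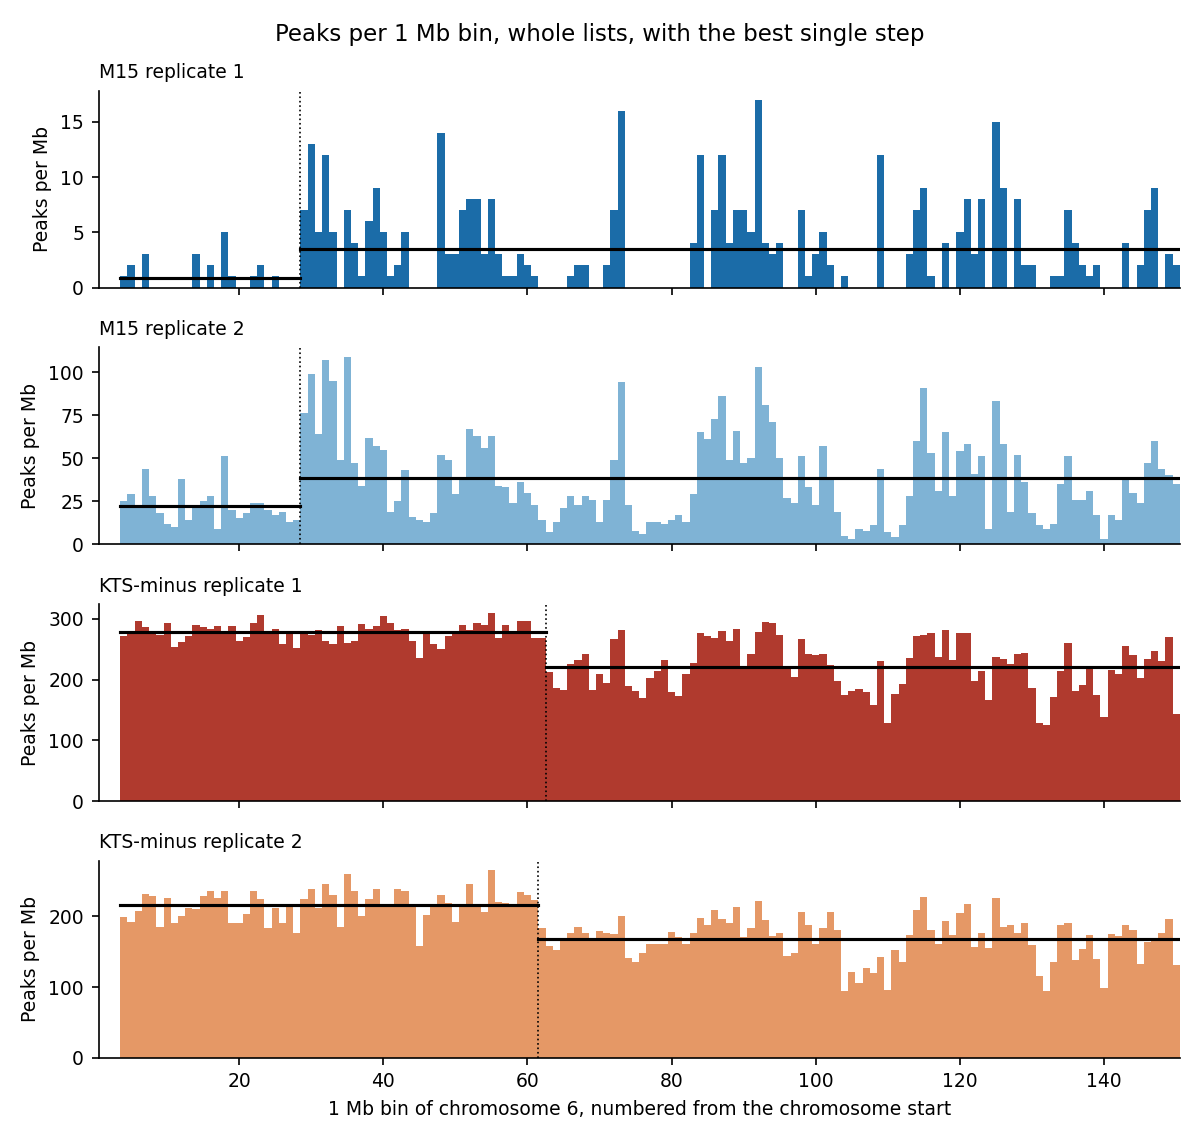
Peaks per 1 Mb bin of chromosome 6 in the whole list of each library; bars are bins, horizontal black lines the mean on either side of the single step that takes up most of the variance, and the dotted line that step. The 2 M15 libraries show separate clusters and a step at 28 Mb, and the KTS-minus libraries show a dense, even stretch up to 62 and 61 Mb and a lower, more uneven one after it.

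The KTS-minus whole lists filled chromosome 6 more evenly than M15 did. Per 1 Mb bin, M15 replicate 1 had from 0 to 17 peaks (median 2) and M15 replicate 2 from 3 to 109 (median 28). KTS-minus replicate 1 had from 125 to 309 (median 259) and KTS-minus replicate 2 from 94 to 265 (median 188). The coefficient of variation over bins was 1.27 and 0.678 in M15 against 0.179 and 0.189 in KTS-minus. The medians of the other autosomes were 1.51 and 0.938 in M15 against 0.407 and 0.291 in KTS-minus, so all 4 libraries were more even on chromosome 6 than on the median autosome. This coefficient falls as a list grows, and the KTS-minus lists are the longest. At equal length it was 0.711 and 0.669 in KTS-minus before 62 Mb and 0.899 and 0.703 after, beside 1.24 and 1.17 and then 1.3 and 1.61 in M15. KTS-minus then left 5 and 6 bins of 1 Mb empty, and M15 left 57 and 50, so the order of the lines was the same but neither line was even. These lists are equal over the genome and not on chromosome 6, where M15 had 444 and 479 peaks and KTS-minus 886 and 654. More peaks by themselves lower the coefficient and leave fewer bins empty, so this order is not separate from the difference in share. Peak density on chromosome 6 was 244 and 187 per Mb in KTS-minus, second to chromosome 19 (246 and 195), where the median of the other autosomes was 128 and 87.5.

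Both KTS-minus libraries dropped at nearly the same place. The single step that took up most of the variance among bins, with at least 10 bins on either side, lay at 62 Mb in KTS-minus replicate 1 and at 61 Mb in KTS-minus replicate 2. Replicate 1 had 278 ± 14.9 peaks per Mb before it (SD over 59 bins) and 221 ± 41.8 after it (88 bins). Replicate 2 had 216 ± 20.7 before and 168 ± 29.9 after, and the ratios of before to after were 1.26 and 1.28. The step took up 41.3% and 44.0% of the variance among bins, place 3 among the 19 autosomes in both libraries, where the medians of the others were 12.2% and 13.4%. With covered bases or total signal per bin in place of peak number, the step lay at 61 Mb in both libraries. In the equal-length lists it lay at 60 and 59 Mb, but it took up only 8.72% and 5.04% of the variance, places 9 and 15 of 19, beside medians of 8.34% and 8.93% on the others. At equal length the step thus did not stand apart from other autosomes. M15 had no step there: its best step was at 28 Mb in both replicates, from 0.840 to 3.47 and from 22.4 to 38.3 peaks per Mb, and took up 6.62% and 6.15%. A single step was imposed on each profile, and the search was added after the profiles had been seen.

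Split at 62 Mb, the higher KTS-minus share held on both sides, with a larger ratio on the first. Before the split, the equal-length shares were 2.61% and 2.73% in M15 against 7.11% and 4.74% in KTS-minus, or 2.67% ± 0.088 against 5.92% ± 1.68 (SD, n = 2 each), a ratio of 2.22. After it they were 4.29% and 4.70% against 6.65% and 5.42%, or 4.50% ± 0.296 against 6.03% ± 0.867, a ratio of 1.34. The groups did not overlap on either side, and the whole lists gave ratios of 1.70 and 1.32. The ratio before the split moved to 3.08 when the lists were taken by total signal, and lay between 1.77 and 2.66 when 1 library was left out. Since the split was placed on the KTS-minus profile, the difference between the sides is a description.

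The stretch before 62 Mb was dense in both KTS-minus whole lists. In KTS-minus replicate 1 its bins had an SD of 14.9 around a mean of 278, and counting alone would give 16.7 for independent peaks. In KTS-minus replicate 2 the SD was 21.0, above the 14.7 of counting alone, so only replicate 1 was that even. Peaks of KTS-minus replicate 1 covered 48.5% of the bases there and 31.8% after the split, and those of replicate 2 covered 18.0% and 13.2%. Whether such crowding bounds the number of peaks was not tested. No stretch of 59 bins on another autosome was as dense in either KTS-minus library, the nearest being chromosome 19 with 246 and 195 peaks per Mb. In M15, 11 and 7 other autosomes held a denser stretch of that length. After the split, chromosome 6 was matched by chromosome 15, whose densest 88 bins held 222 and 174.5 peaks per Mb. The rank correlation of bins with M15 replicate 2 in the whole lists also differed between the sides: in KTS-minus replicate 1 it was 0.145 before the split and 0.859 after, and in KTS-minus replicate 2 it was 0.562 and 0.779. The bins share their libraries and the crowding of peaks, so these values are given without a test.

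Sorted by M15, the ratio of chromosome 6 to the other autosomes in KTS-minus was largest where M15 had fewest peaks. The 1 Mb bins of all autosomes were sorted by the number of M15 replicate 1 peaks, and the mean number of equal-length peaks per bin was taken in the other libraries. In bins without an M15 replicate 1 peak, KTS-minus replicate 1 had 2.89 peaks per bin on chromosome 6 (57 bins) and 0.654 on the other autosomes (1043 bins), a ratio of 4.43. KTS-minus replicate 2 had 2.19 against 0.734, a ratio of 2.99. In bins with at least 6 M15 replicate 1 peaks, the ratio was 1.64 in KTS-minus replicate 1 (11.5 against 7.01) and 1.16 in KTS-minus replicate 2 (8.10 against 6.97). The classes between gave intermediate ratios of 3.39 and 2.66 in replicate 1 and 2.41 and 1.96 in replicate 2. As a difference in peaks per bin, the excess was not largest in the emptiest class. In bins with 3 to 5 M15 replicate 1 peaks, the means were 7.57 against 2.84 in KTS-minus replicate 1 and 5.75 against 2.94 in KTS-minus replicate 2. M15 replicate 2, sorted the same way, had 0.246 against 0.189 in the bins without a replicate 1 peak and 9.90 against 10.2 in the fullest, ratios of 1.3 and 0.968, with 1.36 and 1.15 between. In the whole lists, M15 replicate 2 showed the same gradient: 17.5 against 7.26 peaks in the bins without a replicate 1 peak, a ratio of 2.41, then 1.65, 1.60 and 1.02. The KTS-minus ratios there were 2.97 and 2.66 in the emptiest class and 1.36 and 1.47 in the fullest. The gradient was therefore not confined to KTS-minus, and whether it differed between the lines was not tested.

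**Figure D3:**
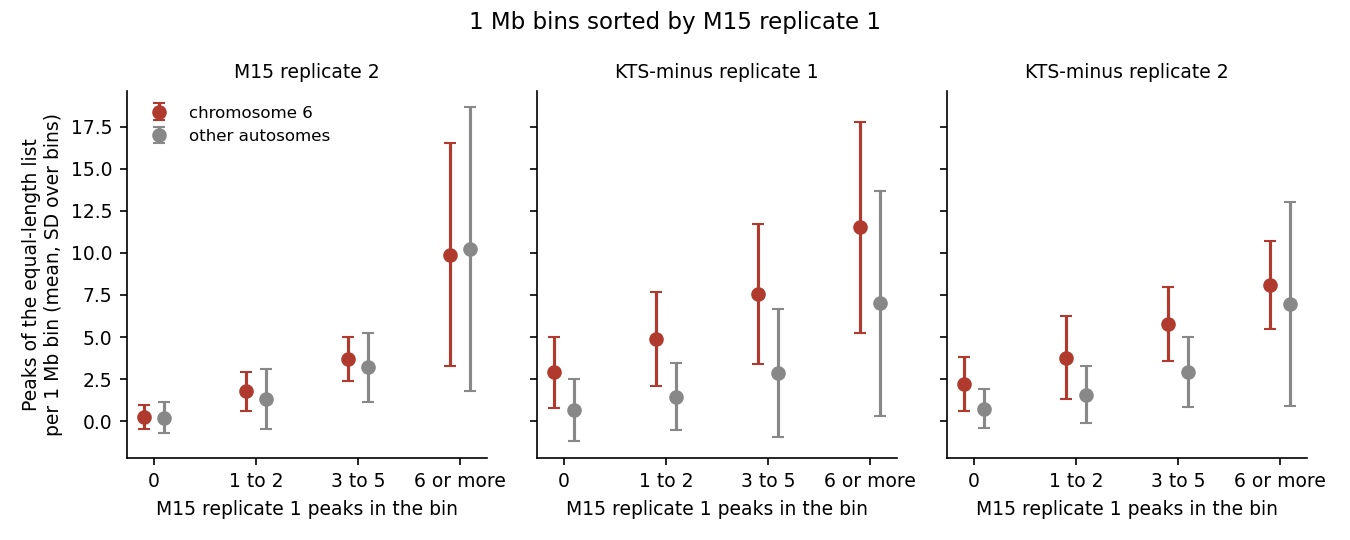
Mean number of equal-length peaks per 1 Mb bin, with SD over bins as error bars, in bins sorted by their number of M15 replicate 1 peaks, for chromosome 6 (red) and the other autosomes (grey). The M15 replicate 2 means on chromosome 6 are 1.3, 1.36, 1.15 and 0.968 times those elsewhere, from the emptiest class to the fullest, and both KTS-minus libraries have more peaks on chromosome 6 in every class, from 4.43 and 2.99 times in the emptiest to 1.64 and 1.16 times in the fullest.

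Among the autosomes, these M15-empty bins of chromosome 6 were the fullest in both KTS-minus libraries. Next in the equal-length lists were chromosome 19 with 1.60 peaks per bin in KTS-minus replicate 1 and chromosome 15 with 2.09 in KTS-minus replicate 2. In the whole lists, they held 222 and 170 KTS-minus peaks per Mb, and chromosome 19 held 203.5 and 168. The value on chromosome 6 was thus close to that of the next chromosome in 3 of these 4 comparisons. At equal length, KTS-minus peaks with no M15 peak of any strength under them were also more frequent on chromosome 6 than on the pooled other autosomes. In KTS-minus replicate 1 they made up 445 of 886 chromosome 6 peaks (50.2%, against 38.9% on the other autosomes). In KTS-minus replicate 2 they made up 325 of 654 (49.7%, against 37.0%). Chromosome 6 did not stand first by this percentage, being in place 4 in replicate 1 and in place 3 in replicate 2. Of all equal-length KTS-minus peaks that overlapped an M15 peak, 11.1% and 8.0% lay on chromosome 6, and of those that did not, 18.0% and 13.9%. In the whole lists, where most KTS-minus peaks have no M15 counterpart, the shares without one were 88.5% against 88% and 84.9% against 84.1%. Chromosome 6 was then in places 11 and 13.

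Chromosome 6 peaks of the whole lists were wider at the median than those elsewhere in both KTS-minus libraries, at 1219 against 1091 bp and 712 against 670 bp. In M15 they were narrower, at 1598 against 1670 bp and 988 against 1007 bp. At equal length the KTS-minus libraries went opposite ways: 2490 against 2242 bp in replicate 1 and 995.5 against 1125 bp in replicate 2. M15 replicate 2 then had 1428 against 1535 bp. Peaks of at least 10000 bp on chromosome 6 were found in KTS-minus replicate 1 and in no other list. They numbered 70 in its whole list, 53 of them before 62 Mb, or 0.195% of its chromosome 6 peaks beside 0.152% elsewhere. At equal length they numbered 50, or 5.64% beside 6.25%, so chromosome 6 was not richer in them there. Median max signal on chromosome 6 lay within 1 unit of that on the other autosomes in every list. It was 14 against 13 in the whole list of KTS-minus replicate 1, and 28 and 46 on and off chromosome 6 in the equal-length KTS-minus lists. The latter values lie just above the edge of those lists, which limits what they can show.

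Merging peaks that share at least 1 bp gave 390 regions of chromosome 6 with a peak in all 4 whole lists. These were 7.32% (95% Wilson interval 6.65 to 8.05) of the 5331 such regions in the genome, place 3 among the autosomes and close to the chromosome's share in M15. As a share of merged regions they made up 0.842% on chromosome 6 and 1.26% on the other autosomes. The equal-length lists gave 145 such regions, 11.4% (9.74 to 13.2) of 1275, second to the 162 of chromosome 11. They made up 9.48% of merged regions, beside 9.03% on the other autosomes. The 390 regions lay in 29 of the 30 bins of 5 Mb, with a median of 9.5 per bin, a maximum of 35 at 85000001 to 90000000 and none at 75000001 to 80000000. Each such region needs a peak of M15 replicate 1, which had 37 peaks in the former bin and 0 in the latter. The number and placement of these regions are thus bounded by that short list, and so is their share of 7.32%. The 145 regions lay in 27 bins, with a maximum of 13 in each of 3 bins, at 50000001 to 55000000, 85000001 to 90000000 and 120000001 to 125000000. In these 3 bins the lines overlapped or KTS-minus was lower at equal length, but bins called higher were also rich in shared regions, such as 35000001 to 40000000 with 10.

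The number of shared regions depended on the shortest list and on the overlap asked for. Without M15 replicate 1, 2365 chromosome 6 regions had a peak in the other 3 whole lists. With a reciprocal overlap of 50%, 100 regions stayed in the whole lists and 30 in the equal-length lists, and with the stretches of max signal in place of whole peaks, 34 and 17. A region held 1 peak of M15 replicate 1 in 366 of the 390 cases, and 1 peak of KTS-minus replicate 2 in only 145, which had up to 14 in 1 region. On the other autosomes, 57.1% of shared regions held a single peak of KTS-minus replicate 2, beside 37.2% on chromosome 6, so more neighbouring peaks of that library were joined there. M15 replicate 2 went the same way, with 70.1% beside 57.2%. The difference was small in M15 replicate 1 (94.2% beside 93.8%) and in KTS-minus replicate 1 (75.1% beside 73.1%).

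Shared regions of chromosome 6 ranked higher and were wider than those of other autosomes in the KTS-minus whole lists, and not in M15. Each region was given the percentile of its strongest peak inside each library's list, 0 being the strongest. In M15 the medians were 50.3 on chromosome 6 against 45.1 elsewhere in replicate 1, and 5.90 against 5.76 in replicate 2. In KTS-minus they were 1.34 against 4.40 and 2.32 against 4.62, the second strongest of the autosomes in both libraries, after chromosome 10 with 1.28 and 1.22. The ratio of chromosome 6 to the rest was 1.07 ± 0.066 in M15 and 0.402 ± 0.139 in KTS-minus (SD, n = 2 each). In KTS-minus, 58.7% and 53.1% of the shared chromosome 6 regions were in the equal-length list, against 35.5% and 41.3% of those elsewhere. In M15 replicate 2, 74.6% were, against 71.2%. The KTS-minus ranks and list membership use the values on which chromosome 6 was chosen, so neither is a separate result.

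**Figure D4:**
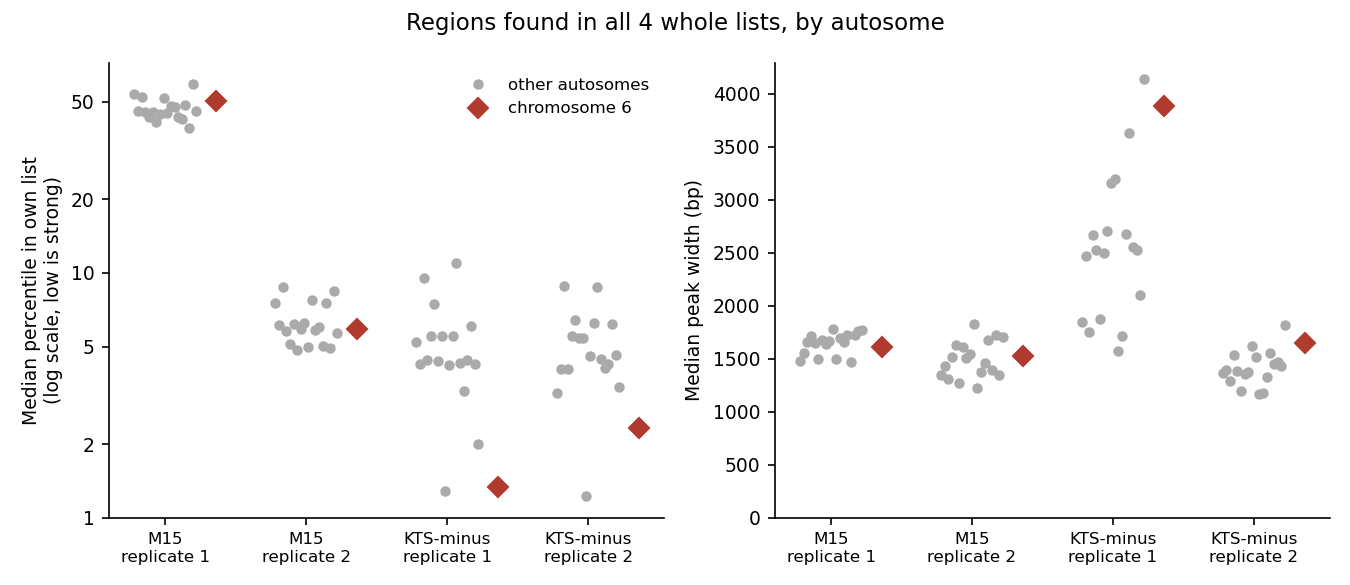
Median percentile (left, log axis, low values are strong) and median peak width in bp (right) of regions with a peak in all 4 whole lists, for each library; each grey point is 1 of the other 18 autosomes and the red diamond is chromosome 6. Chromosome 6 lies inside the range of the others in every panel column; in both KTS-minus libraries it has the second lowest percentile, at 1.34 and 2.32, and the second largest width, at 3882 and 1646 bp.

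The width of the strongest peak differed in the same libraries. It was 3882 bp at chromosome 6 regions against 2623 bp elsewhere in KTS-minus replicate 1, and 1646 bp against 1433 bp in KTS-minus replicate 2, each second to chromosome 19 (4144 and 1819 bp). In M15 it was 1608.5 against 1668 bp and 1525.5 against 1543 bp. The ratios were 0.976 ± 0.017 in M15 and 1.31 ± 0.234 in KTS-minus. In KTS-minus replicate 1 the width was larger before 62 Mb (143 regions, 5371 bp) than after it (247 regions, 3407 bp), and in KTS-minus replicate 2 it was 1818 against 1586 bp, while M15 had 1610 against 1605 bp and 1496 against 1535 bp.

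The rank difference did not hold under every choice. Without M15 replicate 1, the KTS-minus ratio of percentiles was 0.945 and the width ratio 1.06, over the 2365 regions then shared. In the equal-length lists, where the rank inside the list is bounded, the 145 regions of chromosome 6 had median ranks of 1347 and 1367 in M15 against 1256 and 973 in KTS-minus. The corresponding ranks elsewhere were 1019 and 1050 in M15 against 1246 and 1039 in KTS-minus, which gives ratios of 1.31 ± 0.014 and 0.972 ± 0.051. Chromosome 6 was then in places 9 and 10 among the autosomes in KTS-minus. The width ratio of these regions was 1.22 ± 0.203 in KTS-minus and 0.890 in M15. The median widths behind it were 5389 against 3960 bp and 2129 against 1982 bp in KTS-minus, and 1776 against 1973 bp and 1796 against 2041 bp in M15.

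Nearly all chromosome 6 regions found in both M15 lists also had a KTS-minus peak. Of 398 such regions in the whole lists, 390 (98.0%) had a peak in both KTS-minus lists and 2 (0.503%) in neither, beside 93.3% and 1.3% of 5150 regions on the other autosomes. A match needed only 1 bp, and KTS-minus peaks were crowded on chromosome 6. Replicates 1 and 2 covered 48.5% and 18.0% of its bases before 62 Mb, and 31.8% and 13.2% after it. How many matches such coverage alone would give, here or elsewhere, was not tested. At equal length, 145 of 293 such regions (49.5%) were in both KTS-minus lists and 63 (21.5%) in neither, where the other autosomes had 29.7% and 40.7%. By the first of these, chromosome 6 was second after chromosome 10 (55.2%), and the lowest autosome was chromosome 3 (13.0%). Chromosome 6 was chosen for its larger share of the KTS-minus lists, which by itself raises this percentage, so it is no separate result. In the opposite direction, 11272 of 13638 chromosome 6 regions of both KTS-minus whole lists (82.7%) had no M15 peak, beside 72.9% elsewhere. The choice of the chromosome bears on this percentage too, so it is no separate result either.

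Single regions are named by mean rank of max signal in the 4 equal-length lists. The best on chromosome 6, at 3150645 to 3153492 of mm9, had max signals of 168 and 82 in M15 against 217 and 246 in KTS-minus, ranks 28, 10, 12 and 11. It lay close to the start of the chromosome, was the fourth best of all 1275 regions and held the strongest chromosome 6 peak of each KTS-minus list. The next best, 124879485 to 124884499, had 183 and 73 in M15 against 81 and 120 in KTS-minus, ranks 20, 15, 59 and 84. The region at 71577931 to 71584796 ranked 16 and 9 in M15 against 104 and 102 in KTS-minus. Both of these stood higher in both M15 lists than in both KTS-minus lists, whereas the best region did not separate the lines.

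The other 3 of the best 6 lay at 37390867 to 37393898, 47761765 to 47765926 and 85397769 to 85404390. The first ranked 90 and 81 in M15 against 78 and 53 in KTS-minus, higher in both KTS-minus lists. The second ranked 23 and 141 against 138 and 45, with the lines overlapping, and the third ranked 85 and 37 against 146 and 131, higher in both M15 lists. Chromosome 6 held 12 of the best 100 regions, close to its 11.4% of all 1275 regions. The strongest single peak of the chromosome in M15 replicate 1, at 108607999 to 108612320 with max signal 274 and rank 5, was not among the best 6 by mean rank.

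The widest regions shared at equal length were mostly set by wide peaks of KTS-minus replicate 1. The widest, 52105870 to 52128721, spanned 22852 bp and held 3 and 5 M15 peaks and 2 and 4 KTS-minus peaks, the strongest of KTS-minus replicate 1 being 11756 bp wide, with best ranks of 149 and 356 in M15 against 204 and 1139 in KTS-minus. Another wide region, 52141546 to 52160403 (18858 bp), lay close beside it, held 1 peak of KTS-minus replicate 1 of 18723 bp and ranked 1287 and 2768 against 1591 and 206. The region at 15675267 to 15696090 (20824 bp) had the extent of 1 peak of KTS-minus replicate 1 and lay before the M15 step at 28 Mb. It ranked 5320 and 6241 in M15, near the end of the equal-length lists, and 2135 and 1151 in KTS-minus. The whole list of M15 replicate 2 runs on to 60925 peaks.

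Of the 204 chromosome 6 regions with an equal-length peak of both KTS-minus libraries, 8 (3.92%) had no peak in either M15 whole list, beside 1.90% of 1423 on the other autosomes. For these counts regions were merged over the whole lists. The best were 12759325 to 12765247 (max signals 29 and 63), 6778599 to 6781452 (31 and 45) and 135356277 to 135357229 (31 and 44), with ranks of 2628 and 910, 1998 and 3636, and 2086 and 4041. In the other direction 2 of 296 regions (0.676%) were found, beside 0.812% of 3572 on the other autosomes. They lay at 91526056 to 91527747, with M15 ranks of 2250 and 864, and at 145321990 to 145323262, with 4178 and 4619. The best ranks among the regions named here were 864 in M15 replicate 2 and 910 in KTS-minus replicate 2, in whole lists of 60925 and 244428 peaks. Genes and sequences at these positions were not analysed here, since the reference tables at hand belong to another build than the peak lists.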

How the data were processed

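WT1 CUT&RUN peak lists of 4 libraries were analysed. The submitters' processing notes name mm9 as the build and list SEACR 1.3, Bowtie2 2.2.6, SAMtools 1.3, Picard 2.5.0, bedtools 2.23.0 and FastQC 0.11.8. Lists were deposited per library, with total signal and max signal for each peak; these signal values are coverage as the authors deposited it. The sources used here do not give the scaling, control or threshold of the peak calling.

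Peaks were placed in bins of 1 and 5 Mb by midpoint and given as percent of the list. Peaks sharing at least 1 bp were merged. Line values are means of 2 libraries with SD. Coordinates are counted from 1. Named regions are, at equal length, the 6 with the best mean rank in all 4 lists, the 3 widest, and up to 3 of each line without any peak of the other. The members, lists and comparisons were chosen with earlier results of these data known; the step search, its split at 62 Mb, the stretches of equal length, the sorting by M15 replicate 1 and the alternatives for rank and width by line were added after seeing the data. Other orderings of peaks, list lengths, overlap rules and leaving out each library were tried. Python 3.11.15, numpy 2.4.6, pandas 2.3.3, scipy 1.17.1 and matplotlib 3.10.9 were used, and the code was tested on simulated data.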

Additional observations from a re-analysis of the deposited data

How the results depend on the processing

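Of 86 recomputed values, 64 stayed within the limits set (1.5 times for a count, the SD between replicates for a ratio), 21 moved and 1 reversed; the cause was not tested. The equal-length share ratio lay between 1.42 and 1.92 with 1 library left out. Higher bins numbered 13 at 5 Mb and 50 at 1 Mb with lists taken by total signal, and 44 at 1 Mb with the 3000 highest peaks. With 1 library left out they numbered 23 to 26 at 5 Mb and 90 to 112 at 1 Mb. By the definition of a higher bin, leaving out a library can only keep or add such bins. These counts could not fall, so they do not show stability, though they are among the 86 values. Regions in all 4 whole lists numbered 100 with 50% reciprocal overlap, 34 with max signal stretches, 198 in the 50% of each list highest by total signal, and 393 to 2365 with 1 library left out, the last without M15 replicate 1. At equal length they numbered 30, 17, 77 with the 3000 highest peaks, and 157 to 192. With 1 library left out, a region needed a peak in fewer lists, which by itself tends to raise these counts. The KTS-minus percentile ratio of shared regions was 0.705 with reciprocal overlap, 0.175 with stretches, 0.972 at equal length and 0.308 to 0.945 with 1 library left out. The M15 percentile ratio reversed to 0.939 with stretches, and was 1.31 at equal length and 1.04 to 1.55 with 1 library left out. The width ratio was 1.06 to 1.52 in KTS-minus and 0.931 to 0.982 in M15 with 1 library left out, and in M15 0.951 with stretches and 0.890 at equal length. The share ratio before 62 Mb was 3.08 by total signal and 1.77 to 2.66 with 1 library left out, and after it 1.21 to 1.48. No paired analysis was possible because these results come from no test. Without read counts, depth limits cannot be set, and the difference in list length between libraries bears on every count of shared regions.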

Other observations

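A single window of 200 kb at 114400001 to 114600000, picked after its values were seen, held an unusual concentration of chromosome 6 peaks. In the equal-length lists it held 6 and 39 peaks in M15 replicates 1 and 2 and 29 and 12 in KTS-minus replicates 1 and 2. The 39 peaks were 8.14% of the chromosome 6 peaks of M15 replicate 2. No other autosomal window of that length, moved in steps of 50 kb, held more in M15 replicate 2 (next 30, on chromosome 10) or in KTS-minus replicate 1 (next 20, on chromosome 8). In KTS-minus replicate 2, 3 autosomes had a denser window. M15 replicate 1 had its densest chromosome 6 window elsewhere, at 47600001 to 47800000 with 13 peaks. Peaks of the whole lists covered 3.39% and 21.9% of the window in M15 against 42.8% and 30.7% in KTS-minus. Without the window, the equal-length shares of chromosome 6 were 6.81% and 6.87% in M15 against 13.4% and 9.99% in KTS-minus, so the order of the libraries by line was as before.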
